A study of Mus musculus with 9 samples.

Results

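The 10 genes described here make, carry, sense or destroy retinoic acid, and were followed through the conversion of mouse embryonic stem (ES) cells into motor neurons. These genes are Aldh1a2, Stra6, Dhrs3, Crabp1, Crabp2, Rara, Rarb, Rarg, Cyp26a1 and Cyp26b1. Every probe set of the array annotated with one of these symbols alone was taken, which gave 10 of the 18193 genes named and 11 of the 45101 probe sets, with 2 for Rarg and 1 for each of the other 9 genes. Expression was measured on 9 Affymetrix arrays in 3 groups of 3. All cells were of the Ainv15 line with a doxycycline-inducible, V5-tagged Cdx2 construct, so the construct was present in every group. ES cells were taken at day 0, untreated, from cultures kept with LIF on mitomycin-C-treated fibroblasts. Motor neuron cultures were day 5 embryoid bodies given 1 µM all-trans retinoic acid and 0.5 µM of the hedgehog agonist SAG from day 2. Cdx2 and FGF cultures were day 5 embryoid bodies with the same start, to which doxycycline at 2 µg/ml was added on day 3 for 6 to 8 hours, and which received basic FGF at 100 ng/ml. They are called MN cultures and Cdx2/FGF cultures from here on. The growth protocol names 100 nM retinoic acid and 100 nM hedgehog agonist beside FGF and does not say which cultures were changed to these concentrations. The doses of retinoic acid itself and of hedgehog agonist, doxycycline, Cdx2 and FGF are thus parts of the same difference. For genes of this pathway they cannot be told apart. The protocols name no sorting of the embryoid bodies, so fewer cells of a type and less RNA per cell cannot be told apart either.

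Retinoic acid is made from retinol, which enters cells through the receptor STRA6, is oxidised to retinal and then to the acid, the last step by ALDH1A2 in much of the embryonic trunk. DHRS3 returns retinal to retinol, the CRABP proteins carry the acid in the cytoplasm, and the CYP26 enzymes hydroxylate and so remove it. The receptors RARα, RARβ and RARγ bind DNA with a retinoid X receptor at retinoic acid response elements, often direct repeats of a 6-base half-site. In the embryo, retinoic acid from the somites patterns the hindbrain and spinal cord, while CYP26A1 keeps the tail bud low in it. Several of the genes are themselves induced by retinoic acid, among them Rarb, Cyp26a1, Dhrs3 and Stra6, and so report on the signal as well as shaping it.

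Because Rarb and Cyp26a1 are textbook targets of the receptors, the RefSeq promoter windows of the genes (GRCm38.p6, 250 bases before to 50 after a start site) were searched on both strands for direct repeats. The half-site could be AGGTCA, the textbook form for these receptors, or a form with another base in it, AGTTCA. The same was allowed with a leading G in place of the A, which gives GGGTCA for the textbook form. It gives GGTTCA for the other, and any pairing of the forms was taken. Windows were found for 9 of the 10 genes, 18 windows in all; Crabp2 had no entry. A direct repeat with a spacer of 5 bases (DR5) was present in the windows of Rarb and Cyp26a1 alone among them, against 0.0974% of all 32851 windows. No repeat with a spacer of 1 or 2 bases was present in the members' windows, against 0.222% and 0.268% of all windows. The single half-site AGGTCA, in 16.3% of all windows, occurred in 1 window of Rara and 1 of Rarg. The 2 elements are shown 5′ to 3′ in the direction of the repeat, with the half-sites in capitals and 6 bases on either side. The Rarb element (chr14:16575507-16575535, minus strand, the gene's own strand) ends 37 bases before the start site, and that of Cyp26a1 (chr19:37697770-37697798, minus strand, opposite to the gene) lies 16 to 32 bases before its start site.
Rarb: gggaagGGTTCAccgaaAGTTCActcgca
Cyp26a1: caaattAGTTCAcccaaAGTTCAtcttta
Of the 17 bases of the element 15 were identical. Counted from 1 at the first base of the first half-site, with Rarb as the reference, the substitutions were G1A and G9C, the first in a half-site and the second in the spacer. These are matches of letters and say nothing of binding.

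The arrays differed in ways that touch every comparison with ES cells. By its 3′ probe set, 18S ribosomal RNA read 5.86 to 6.6 on the ES arrays and 15.32 to 15.51 on the 6 day 5 arrays, and the 3′ minus 5′ difference of the Tfrc controls was 5.59 to 6.86 against -1.74 to -1.39. For the Actb controls that difference was 1.87 to 2.3 against -0.1 to -0.01. For Gapdh it was 0.63 to 1.05 in ES cells, 0.59 to 0.65 in MN cultures and 0.51 to 0.54 in Cdx2/FGF cultures. The ES arrays correlated with each other at 0.963 to 0.973, the arrays of each day 5 group at 0.995 to 0.998. The part of these differences in the results was not tested. All 8 ES cell markers exceeded 4 on every ES array, and 7 of 8 lay under 4 on all day 5 arrays. Of 8 motor neuron and ventral progenitor markers, 6 exceeded 4 on all MN arrays and 5 on all Cdx2/FGF arrays. Between these groups Mnx1, Isl1, Lhx3 and Slc18a3 were called lower in Cdx2/FGF cultures, while Chat, the gene of the acetylcholine-synthesising enzyme, lay under 4 on all arrays. Olig2 and Nkx6-1 of the same list were not called between these groups. Olig2 read 12.24 to 12.42 in MN cultures and 11.38 to 11.46 in Cdx2/FGF cultures, and Nkx6-1 11.93 to 12.11 and 11.94 to 12.15. Cdx2 read 2.17 to 2.24 on the 6 arrays without induction and 8.27 to 8.99 with it.

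Values are on a log2 scale with a floor of 2.17. A call needed an adjusted p under 0.05 (limma, Benjamini-Hochberg over the 21523 probe sets over 4 on at least 3 arrays) and a log2 difference of at least 1. All 11 members entered the test. Cyp26b1 did so only through the 3 MN arrays, where it is high, and Aldh1a2 only through the Cdx2/FGF arrays and 1 ES array, so these could hardly fail to differ and the counts that follow are a description. In MN cultures 8 of the 11 probe sets were higher than in ES cells and 2 lower, where 31.9% of all probe sets tested were higher and 27.9% lower. The members' median difference was 3.67, and that of all probe sets tested 0.10. In Cdx2/FGF cultures 5 were higher than in MN cultures and 3 lower, with 10.9% and 8.57% over all probe sets; the medians were -0.19 and 0.04. Set against ES cells, Cdx2/FGF cultures had 9 higher and 1 lower, with 31.4% and 24.7% over all; the medians were 3.65 and 0.14. Each pair of these comparisons shares the arrays of one group. The arrays of both groups did not overlap for 10 of the 11 probe sets in the first comparison, 10 in the second and 11 in the last, where this held for 75.2%, 60.9% and 74.2% of all probe sets tested. The 11 include Cyp26b1, which was at or near the floor in both groups, with a log2 difference of 0.01. With each array centred on its median, 64.4% of all calls between MN cultures and ES cells were higher in place of 53.3%, and 68.5% in place of 56% for Cdx2/FGF cultures against ES cells. That centring moved the median difference of all probe sets in the first comparison from 0.10 to 0.54.

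**Figure D1:**
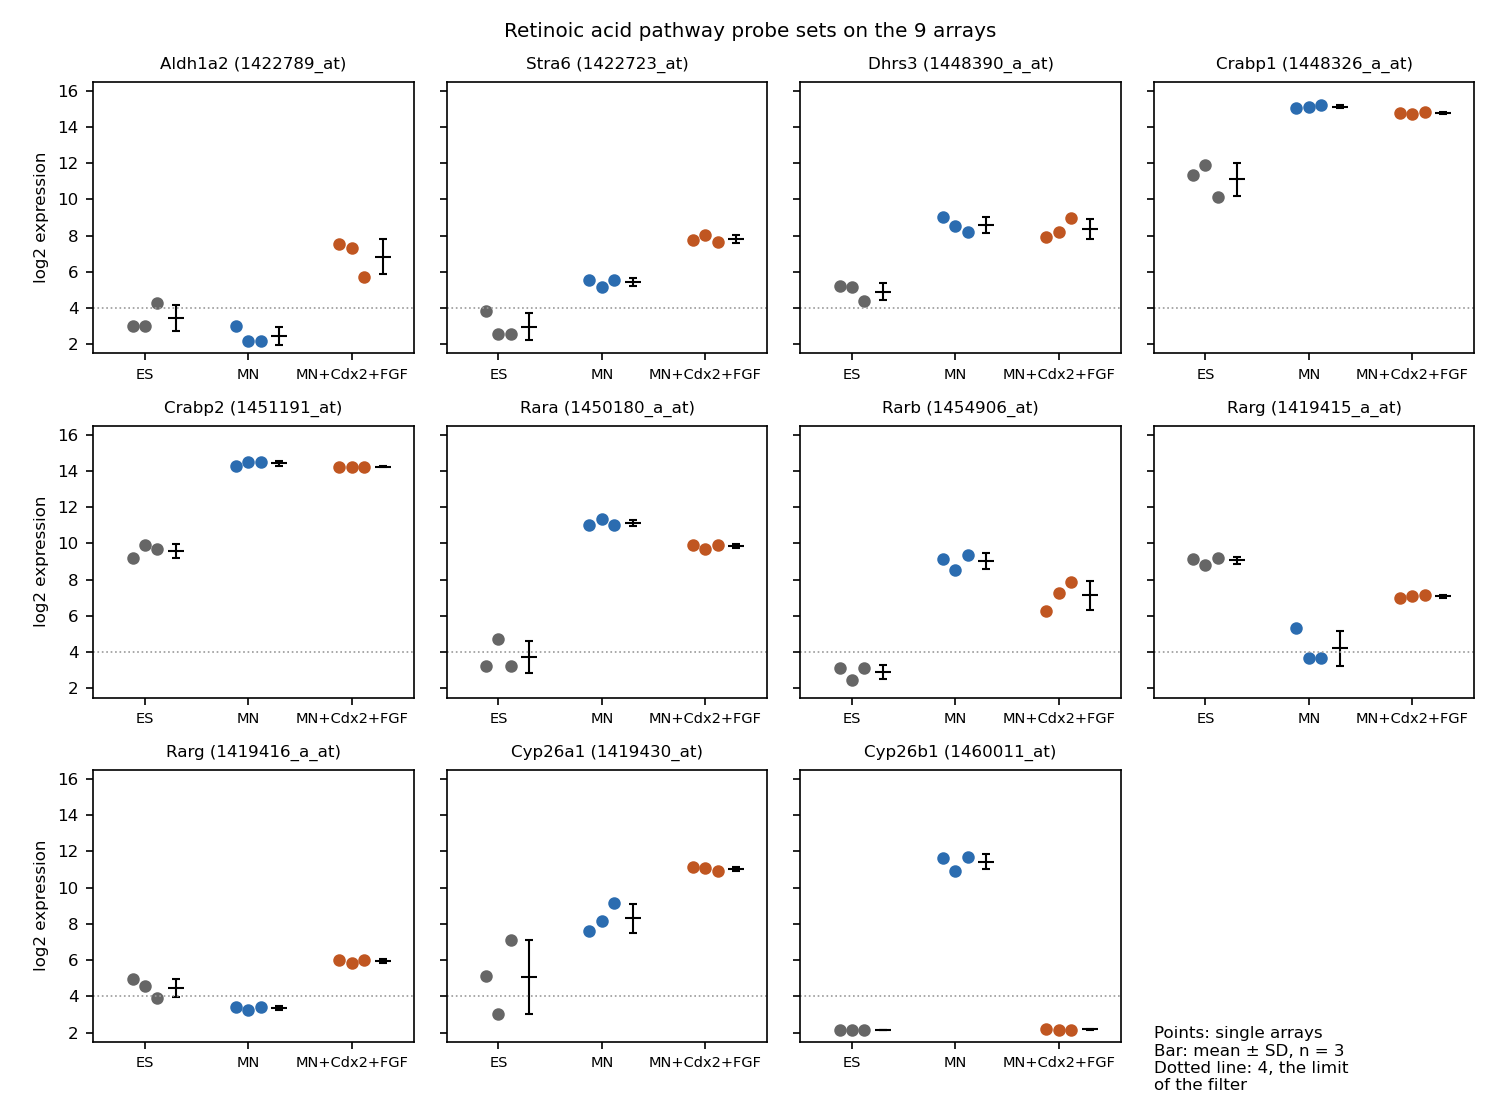
Log2 expression (vertical axis) of the 11 probe sets on each of the 9 arrays, by group (horizontal axis), with the group mean and SD beside the points and a dotted line at 4. Cyp26b1 is high in MN cultures alone, Aldh1a2 in Cdx2/FGF cultures alone, and the first Rarg probe set is lowest in MN cultures.

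Of the genes for uptake and synthesis, Aldh1a2 and Stra6 were highest in Cdx2/FGF cultures. Aldh1a2, the retinaldehyde dehydrogenase gene, read 3.02, 3.02 and 4.26 on the ES arrays, 3.02, 2.17 and 2.17 in MN cultures, and 7.52, 7.29 and 5.72 in Cdx2/FGF cultures. The Cdx2/FGF arrays lay above all others, while the ES and MN arrays overlapped. The rise over MN cultures was at least 7.19-fold (log2 difference of 4.4, SE 0.53, adjusted p = 0.000289). Folds are given as such a bound where an array of the dimmer group lay under 4, with such values raised to 4. Over ES cells the rise was at least 6.77-fold (log2 difference 3.41, adjusted p = 0.000328). Aldh1a2 passed the filter only through the Cdx2/FGF arrays and 1 ES array, so both rises and their p-values are a description. Between MN cultures and ES cells the difference of -0.98 passed no threshold (95% interval -2.19 to 0.23, adjusted p = 0.123).

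Stra6, the gene of the retinol uptake receptor, read 3.83, 2.56 and 2.56 in ES cells, 5.56, 5.18 and 5.56 in MN cultures, and 7.76, 8.04 and 7.63 in Cdx2/FGF cultures. No groups overlapped, with ES cells lowest and Cdx2/FGF cultures highest. It was at least 2.71-fold higher in MN cultures than in ES cells (log2 difference of 2.46, SE 0.36, adjusted p = 0.000184). In Cdx2/FGF cultures it was 5.19-fold higher than in MN cultures (log2 difference of 2.38, SE 0.36, adjusted p = 0.00106).

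Dhrs3, whose product turns retinal back into retinol, read 5.21, 5.15 and 4.38 in ES cells, 9.05, 8.52 and 8.18 in MN cultures, and 7.9, 8.19 and 8.97 in Cdx2/FGF cultures. Both kinds of day 5 culture lay above ES cells and overlapped each other. The rise in MN cultures was 12.7-fold (log2 difference of 3.67, SE 0.37, adjusted p = 1.58e-05). Between the day 5 cultures the difference was -0.23 with a 95% interval of -1.07 to 0.61 (adjusted p = 0.729). With 3 arrays a group, differences within that interval are compatible with the values.

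The binding proteins were high in both day 5 groups. Crabp1, the gene of a cytoplasmic carrier of retinoic acid, read 11.34, 11.88 and 10.11 in ES cells, 15.04, 15.08 and 15.2 in MN cultures, and 14.76, 14.71 and 14.81 in Cdx2/FGF cultures. Its mean over the 9 arrays was at the percentile 98.7 of the array. MN cultures were 16-fold above ES cells (log2 difference of 4, SE 0.36, adjusted p = 6.66e-06). Crabp2, whose product hands retinoic acid to the receptors, read 9.18, 9.92 and 9.71 in ES cells, 14.26, 14.47 and 14.51 in MN cultures, and 14.23, 14.24 and 14.2 in Cdx2/FGF cultures. It was 28.1-fold higher in MN cultures than in ES cells (log2 difference of 4.81, SE 0.17, adjusted p = 1.75e-08).

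For both carriers the Cdx2/FGF arrays lay just below the MN arrays without overlap. The difference of Crabp1 was -0.35 (95% interval -1.15 to 0.46, adjusted p = 0.546) and that of Crabp2 -0.19 (95% interval -0.57 to 0.19, adjusted p = 0.473). Both intervals come from the fit of all 9 arrays, whose spread takes in the ES arrays. The SD of Crabp1 was 0.91 in ES cells, 0.08 in MN cultures and 0.05 in Cdx2/FGF cultures. That of Crabp2 was 0.38, 0.13 and 0.02 in the same order. In a fit of the 6 day 5 arrays alone, the adjusted p was 0.00363 for Crabp1 and 0.0736 for Crabp2, and the differences were under the size of 1 needed for a call.

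The receptor genes differed in direction between ES cells and MN cultures. By its brighter probe set Rarg was above 4 on all ES arrays, Rara and Rarb rose in MN cultures as Rarg fell, and Cdx2/FGF cultures lay between for each of the leading probe sets. Rara, the gene of RARα, read 3.23, 4.73 and 3.23 in ES cells, 11.04, 11.32 and 11.03 in MN cultures, and 9.93, 9.7 and 9.9 in Cdx2/FGF cultures. No groups overlapped. It rose at least 118-fold from ES cells to MN cultures (log2 difference of 7.4, SE 0.38, adjusted p = 1.72e-07).

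Against MN cultures Rara was 2.44-fold lower in Cdx2/FGF cultures (log2 difference of -1.29, SE 0.38, adjusted p = 0.0315). This call held in the fit of the 6 day 5 arrays (adjusted p = 6e-04) and with array weights (6.31e-05), and ended without the filter on low values (0.105). It also ended without any one of the 6 day 5 arrays, at adjusted p = 0.0744 to 0.108 and log2 differences of -1.34 to -1.19.

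Rarb, the gene of RARβ and the bearer of the first element above, read 3.15, 2.48 and 3.15 in ES cells, 9.14, 8.54 and 9.39 in MN cultures, and 6.26, 7.24 and 7.88 in Cdx2/FGF cultures. The 3 groups did not overlap. It was at least 32.5-fold higher in MN cultures than in ES cells (log2 difference of 6.1, SE 0.43, adjusted p = 1.38e-06). In Cdx2/FGF cultures it was 3.71-fold lower than in MN cultures (log2 difference of -1.89, SE 0.43, adjusted p = 0.00969), yet at least 8.75-fold above ES cells (log2 difference 4.21, adjusted p = 1.94e-05).

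Rarg, the gene of RARγ, had a pair of probe sets. The first, with the higher mean, read 9.17, 8.82 and 9.19 in ES cells, 5.33, 3.66 and 3.66 in MN cultures, and 6.99, 7.08 and 7.17 in Cdx2/FGF cultures. The second read 4.93, 4.54 and 3.91 in ES cells, 3.41, 3.25 and 3.41 in MN cultures, and 6.03, 5.83 and 6 in Cdx2/FGF cultures. In both, MN cultures were the lowest group and overlapped no other.

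The fall from ES cells was at least 24.5-fold by the first Rarg probe set (log2 difference of -4.85, SE 0.43, adjusted p = 6e-06). By the second it was at least 1.41-fold (log2 difference of -1.1, SE 0.27, adjusted p = 0.00463), and that call ended with values under 4 raised to 4 (adjusted p = 0.0796), with quantile normalization or median centring, and without ES replicate 1 (log2 difference -0.87). The rise in Cdx2/FGF cultures over MN cultures was at least 6.23-fold by the first (log2 difference 2.87, adjusted p = 0.000972) and at least 3.87-fold by the second (log2 difference 2.59, adjusted p = 0.000111). Against ES cells the pair disagreed. Cdx2/FGF cultures were 3.94-fold lower by the first probe set (log2 difference -1.98, adjusted p = 0.00235) and at least 2.75-fold higher by the second (log2 difference 1.49, adjusted p = 0.000826). The mean of the pair gave -0.24 (adjusted p = 0.408), so Rarg has no settled direction in that comparison.

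**Figure D2:**
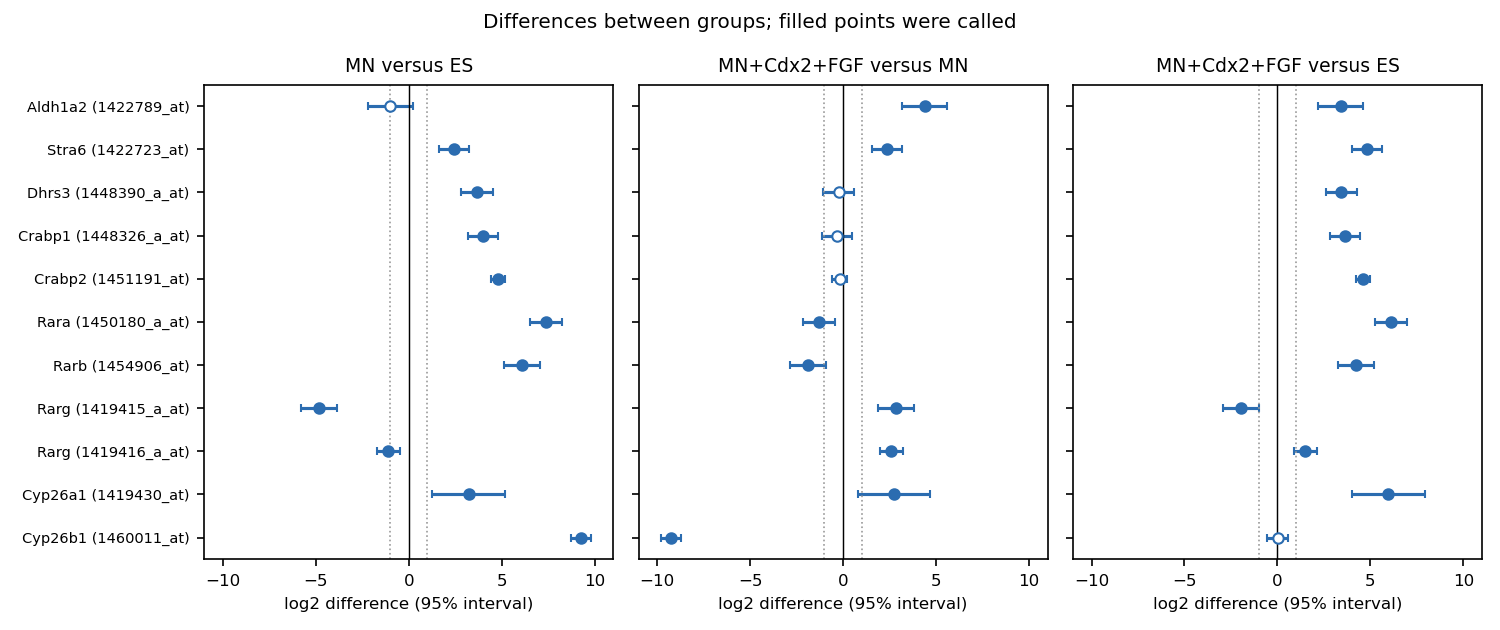
Log2 differences (horizontal axis) with 95% intervals for the 11 probe sets (vertical axis) in the 3 comparisons; filled points were called, and dotted lines mark -1 and 1. Between the day 5 cultures Cyp26b1 lies at -9.25 and Aldh1a2 at 4.4, and the intervals of Dhrs3, Crabp1 and Crabp2 include 0.

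Cyp26a1 and Cyp26b1, the retinoic acid hydroxylase genes with a probe set of their own, were higher in MN cultures than in ES cells. Between the day 5 cultures Cyp26b1 was lower and Cyp26a1 higher in Cdx2/FGF cultures. Cyp26b1, a hydroxylase gene of the hindbrain and limb among other sites, read 2.17 on all 3 ES arrays, 11.64, 10.94 and 11.7 in MN cultures, and 2.21, 2.17 and 2.17 in Cdx2/FGF cultures. It was at or near the floor in every array of both other groups. The rise from ES cells was at least 172-fold (log2 difference of 9.26, SE 0.24, adjusted p = 4.76e-09). In Cdx2/FGF cultures it was at least 172-fold lower than in MN cultures (log2 difference of -9.25, SE 0.24, adjusted p = 7.02e-08). Cyp26b1 passed the filter only through the 3 MN arrays, where it is high, so both differences and their p-values are a description. Between ES cells and Cdx2/FGF cultures the difference was 0.01 (95% interval -0.54 to 0.57), with both groups at the floor and no fold.

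Cyp26a1, the hydroxylase gene of the tail bud and the bearer of the second element, read 5.11, 3.01 and 7.09 in ES cells, 7.59, 8.14 and 9.16 in MN cultures, and 11.11, 11.08 and 10.89 in Cdx2/FGF cultures. Its spread in ES cells was the widest of any group among the 11 probe sets (5.07 ± 2.04, SD, n = 3), against 11.03 ± 0.12 in Cdx2/FGF cultures. No groups overlapped. MN cultures were at least 7.45-fold above ES cells (log2 difference of 3.23, SE 0.86, adjusted p = 0.00733). This difference was 2.2 without ES replicate 2 and 4.24 without ES replicate 3, both still called.

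Cdx2/FGF cultures were 6.63-fold above MN cultures in Cyp26a1 (log2 difference of 2.73, SE 0.86, adjusted p = 0.0412) and at least 49.4-fold above ES cells (log2 difference 5.96, adjusted p = 0.000196). The log2 difference from ES cells was 4.93 without ES replicate 2 and 6.97 without ES replicate 3, so the size of that fold rests on single ES arrays. The call between the day 5 cultures held in the fit of the 6 day 5 arrays (adjusted p = 0.00388) and with array weights (7.43e-05). It ended with quantile normalization (0.0522), without the intensity trend (0.0536), without the filter (0.162), and without any one of the 6 day 5 arrays (0.0517 to 0.155). The log2 difference stayed between 2.38 and 3.16 throughout. The 2 genes with a DR5 element in the window were thus both higher in MN cultures than in ES cells and were called in opposite directions between the day 5 cultures, where Rarb was lower and Cyp26a1 higher in Cdx2/FGF cultures.

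Of 31 genes whose window held a DR5 element, 11 had a probe set and 4 were tested, namely Rarb, Cyp26a1, Hbb-y and Blvrb. The embryonic globin gene Hbb-y averaged 2.17 in ES cells, 7.09 ± 1.06 (SD, n = 3) in MN cultures and 2.17 in Cdx2/FGF cultures. The biliverdin reductase gene Blvrb averaged 8.76 ± 0.73, 8.84 ± 0.31 and 9.07 ± 0.08 in the same order. Hbb-y passed the filter on low values only through the 3 MN arrays, where it is high, so its values are a description. Blvrb was called neither between MN cultures and ES cells nor between the day 5 cultures (adjusted p = 0.856 and 0.693). Hbb-y is one of several similar globin genes, which its probe set may not separate.

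The rest of the pathway was followed through its own lists, each gene by its brightest probe set on average, where 25.9% of all 10911 genes tested were higher and 30.7% lower in MN cultures than in ES cells, and 11.1% and 8.55% between the day 5 cultures. Against ES cells, 25.4% were higher and 27.2% lower in Cdx2/FGF cultures. In the list for synthesis and storage, 26 of 28 genes had a probe set and 9 were tested. Of these, 3 were higher and 1 lower in MN cultures than in ES cells (median difference 0.08, with -0.08 over all genes tested). Between the day 5 cultures 2 were higher and 0 lower (median 0.22, against 0.04). Rdh10, the retinol dehydrogenase that makes retinal in the embryo, read 8.2, 8.39 and 8.87 in ES cells, 8.36, 8.06 and 8.46 in MN cultures, and 9.63, 9.65 and 10.43 in Cdx2/FGF cultures. Only the last group stood apart, 3.05-fold above MN cultures (log2 difference of 1.61, SE 0.28, adjusted p = 0.00227). Its second probe set gave 1.51 without a call.

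Aldh1a7, a close relative of the Aldh1a1 gene, was the other one called between the day 5 cultures, at 5.26 ± 0.28 against 3.67 ± 0.64 (SD, n = 3; adjusted p = 0.00501), at least 2.28-fold. It also counts among the 3 called higher in MN cultures than in ES cells, where the bound is 1.05-fold. Aldh1a7 passed the filter only through the Cdx2/FGF arrays and MN replicate 3 (4.22), so its calls and p-value are a description. Aldh1a3, the other well-known retinaldehyde dehydrogenase gene of the embryo, was too dim to be tested, at 2.17 in ES cells and MN cultures and 2.43 in Cdx2/FGF cultures. Rdh14 and Rdh11, 2 further retinal reductase genes, were higher in MN cultures than in ES cells, at 7.97 against 4.82 (at least 7.05-fold) and 8.87 against 7.68. The second probe set of Rdh11 gave 0.42 without a call (adjusted p = 0.404), and that of Rdh14 was called lower (log2 difference -4.3). Dhrs4 fell from 11.19 to 8.98 (adjusted p = 4.65e-06).

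Of 9 transport and binding genes 8 had a probe set and 5 were tested. In MN cultures 3 were higher and 1 lower than in ES cells (median difference 1.9), and between the day 5 cultures 2 were higher and 0 lower (median 0.48). Rbp4, the gene of the plasma retinol-binding protein, read 3.43, 2.92 and 3.43 in ES cells, 6.1, 7.22 and 8.18 in MN cultures, and 10.14, 10.27 and 10.13 in Cdx2/FGF cultures. No groups overlapped. It was at least 8.97-fold higher in MN cultures than in ES cells (adjusted p = 4.28e-05), and in Cdx2/FGF cultures 8.09-fold higher than in MN cultures (log2 difference of 3.02, SE 0.46, adjusted p = 0.00111). Stra6l, a relative of Stra6, was at the floor of 2.17 in ES cells and MN cultures and averaged 5.02 ± 0.76 (SD, n = 3) in Cdx2/FGF cultures, at least 2.02-fold higher. Fabp5, a fatty acid-binding protein gene whose product can carry retinoic acid, rose 3.83-fold from ES cells to MN cultures. Ttr, the gene of the plasma carrier transthyretin and also an endoderm marker, was 4.16 against 2.26 there, at least 1.19-fold. Rlbp1, a retinal-binding protein gene of the eye, was 2.25 in MN cultures against 5.31 in ES cells, at least 2.48-fold lower. Stra6l passed the filter only through the Cdx2/FGF arrays and Rlbp1 only through the ES arrays, so for 2 of the 5 genes tested the group with the high values was fixed by the filter, and the list's counts are a description. Among the 19 known responders tested, Gata6 passed only through the MN arrays and Foxa1 only through the Cdx2/FGF arrays. The list with Cyp26c1 alone had no probe set of its own.

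Of 25 receptor partners, coactivators and corepressors 22 had a probe set and 21 were tested. Against ES cells 4 were higher and 11 lower in MN cultures (median -1.25), whereas between the day 5 cultures 1 was higher and 0 lower (median 0), the one being Trim24, at 9.75 against 8.69. The retinoid X receptor gene Rxra read 7.11, 7.86 and 7.46 in ES cells, 8.86, 9.28 and 9.22 in MN cultures, and 8.6, 8.67 and 8.58 in Cdx2/FGF cultures, a 3.13-fold rise from ES cells to MN cultures (log2 difference 1.64, adjusted p = 0.000158). Between the day 5 cultures its difference of -0.5 passed no threshold (adjusted p = 0.146). Rxrb averaged 10.32 ± 0.06, 10.89 ± 0.06 and 11.12 ± 0.07 (SD, n = 3) in the same order, steps of 0.57 and 0.23 that were under the size needed for a call. Rxrg was not tested, reading 5.47, 2.78 and 3.26 in MN cultures and 2.17 on all other arrays.

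Zfp423, Ppard and Hdac3 had the largest rises of the cofactor list from ES cells to MN cultures (7.47-fold, 5.53-fold and 4.54-fold), and the coactivator genes Ncoa1, Kat2b and Ncoa3 the largest falls (26.1-fold, 11.9-fold and 6.88-fold). Probe sets of one gene often disagreed against ES cells. Among the called genes of all lists with another tested probe set, 8 of 25 had one called the opposite way, among them Kat2b (log2 difference 1.3), Crebbp, Med1, Tbl1xr1, Nsd1 and Nr2c1, and without a call the second probe sets of Ncoa1 and Ppard stood at -0.54 and -0.55. Between the day 5 cultures this held for 0 of 6.

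In the list of genes known to respond to retinoic acid, 23 of 29 had a probe set and 19 were tested. In MN cultures 11 were higher than in ES cells and 4 lower (median 2.39). Hoxb5, Nr2f1 and Hoxb4, a pair of Hox genes and an orphan receptor gene, rose at least 1130-fold, 811-fold and 480-fold. Fst, the gene of the activin inhibitor follistatin, Tfap2c and Bhlhe40 were lower. Between the day 5 cultures 4 were higher and 5 lower (median -0.62). Hoxb4, Hoxa4 and Hoxb5 were 13.2-fold, 12.9-fold and 11.3-fold lower in Cdx2/FGF cultures. The Hoxa4 probe set read 5.03 on every Cdx2/FGF array. The other tested probe sets of Hoxb4 and Hoxa4 gave larger falls, with log2 differences of -5.26 and -6.71. Hoxb5 had no other tested probe set, so the sizes of these falls depend on the probe set. Tgm2, the tissue transglutaminase gene, rose 11.3-fold from 8.56 ± 0.18 to 12.06 ± 0.24 (SD, n = 3; adjusted p = 1.62e-06), in all 5 of its tested probe sets. Cnn1, a smooth muscle gene that is also among the markers below, rose at least 9.34-fold and Bhlhe40 8.74-fold. Cnn1 passed the filter only through the Cdx2/FGF arrays and ES replicate 3 (4.91), so its rise is a description. Nr2f1 and Meis2, high in both day 5 groups, differed between them by -0.93 (adjusted p = 0.000893) and -0.26 (0.717), under the size needed for a call. In Cdx2/FGF cultures against ES cells, 4 of 9 synthesis genes, 4 of 5 transport genes, 4 of 21 cofactor genes and 12 of 19 known responders were higher, and 1, 1, 10 and 2 lower.

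**Figure D3:**
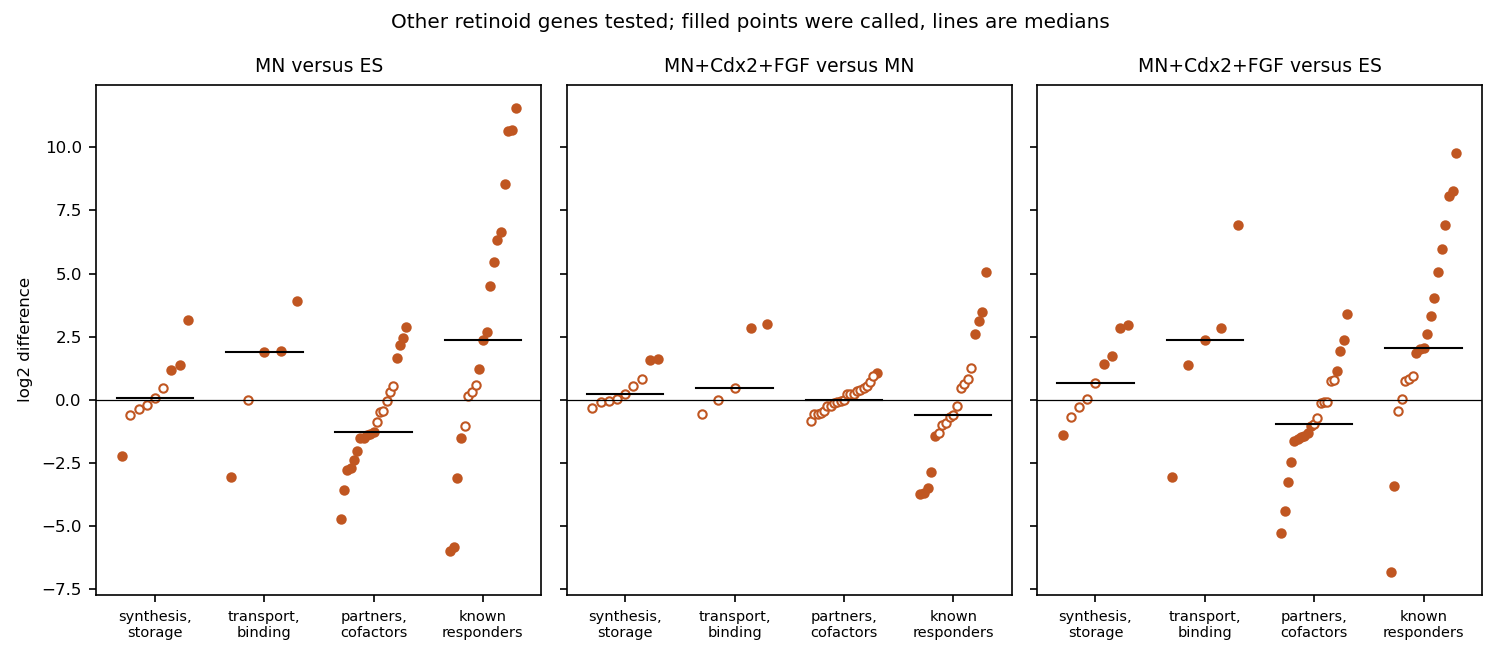
Log2 differences (vertical axis) of the tested genes of the 4 other retinoid lists in the 3 comparisons; filled points were called and lines are list medians. The spread of the cofactor list is wide against ES cells and narrow between the day 5 cultures, where 1 of 21 genes was called.

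Markers of other cells moved with these differences. The summed level of the 7 mesoderm and smooth muscle markers with a probe set (of 8 listed), on the log2 scale, was 10.29 to 14.02 on the ES arrays, 5.35 to 8.56 in MN cultures and 14.67 to 14.84 in Cdx2/FGF cultures, where 4 of the 7 exceeded 4 on all arrays while the early mesoderm genes Tbx6, Msgn1 and Mesp1 lay under 4. The 8 fibroblast markers were all under 4 in MN cultures, and 4 of them exceeded 4 in Cdx2/FGF cultures, with Thy1, Dcn, Lum and Postn under 4. In ES cells 2 of the 8 exceeded 4 on all arrays. The 8 endoderm markers summed to 5.73 to 6.91 in ES cells, 9.11 to 9.94 in MN cultures and 11.78 to 12.05 in Cdx2/FGF cultures. Sox17, Gata4 and Afp lay under 4 on all arrays, and in Cdx2/FGF cultures Gata6 and Apoa1 did too. Foxa2 read 8.9, 9.79 and 9.33 in MN cultures and 11.11, 11.31 and 11.49 in Cdx2/FGF cultures. Dab2 read 4.19, 4.6 and 5.65 against 10.31, 10.41 and 10.38. Gata6 read 4.59, 4.62 and 5.13 in MN cultures and 3.34 on all Cdx2/FGF arrays. The endoderm sums at day 5 thus rest mainly on Foxa2 in MN cultures and on Foxa2 and Dab2 in Cdx2/FGF cultures. The 5 neural crest markers with a probe set (of 6) summed to 10.77 to 10.89 in ES cells. In MN cultures the sum was 11.54 to 11.89 and in Cdx2/FGF cultures 12.15 to 12.56. Sox10 and Tfap2a lay under 4 on all arrays, and Foxd3 on all day 5 arrays. Erbb3 read 10.87, 10.88 and 10.69 in ES cells, 3.77 on all MN arrays, and 5.4, 5.4 and 5.12 in Cdx2/FGF cultures. Ednrb read 2.77, 2.77 and 2.68, then 11.53, 11.69 and 11.88, then 12.13, 12.16 and 12.54. The sums thus rest on Erbb3 in ES cells and on Ednrb at day 5. The 8 motor neuron and ventral progenitor markers summed to 8.27 to 8.99 in ES cells, 14.12 to 14.33 in MN cultures and 12.92 to 13.01 in Cdx2/FGF cultures, and their mean log2 level was 8.89 to 9.57 in MN cultures and 6.65 to 6.72 in Cdx2/FGF cultures. Slc18a3, the vesicular acetylcholine transporter gene, read 11.29, 11.37 and 10.65 in MN cultures and 4.12, 4.01 and 3.67 in Cdx2/FGF cultures. Pan-neuronal markers, 6 in number, summed to 13.1 to 13.53 in ES cells, 15.79 to 16.17 in MN cultures and 12.93 to 13.07 in Cdx2/FGF cultures. Stmn2 was the highest of them in ES cells, at 13.37, 13.09 and 12.75, and read 9.79, 9.81 and 9.7 in Cdx2/FGF cultures. Against ES cells it was called lower there, Elavl3 was not called, and Tubb3, Dcx, Elavl4 and Map2 were called higher. The mean log2 level of the 6 was 7.41 to 8.24 in ES cells, 12.99 to 13.42 in MN cultures and 9.22 to 9.64 in Cdx2/FGF cultures. Neural progenitor markers, also 6, summed to 8.18 to 10.05, 13.86 to 14.11 and 11.65 to 11.82 in the same order. Between the day 5 cultures Fabp7 and Hes5 were called lower in Cdx2/FGF cultures, and Sox1, Pax6, Sox3 and Nes were not called. The part of these markers' cells in the levels of Aldh1a2, Stra6, Rdh10, Rarg, Cyp26a1 and Cyp26b1 was not tested.

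For 3 members the genes with the most similar profile were taken by the smallest root mean square difference over the 9 arrays after centring, as a description of these 9 arrays. Cyp26a1 was nearest to Slc8a3, Gpc3 and Pdlim5, at 0.487, 0.575 and 0.677 on the log2 scale, where the median over all probe sets was 2.65. Rarb was nearest to Srrm4, Pou3f2 and Oaz3, at 0.456, 0.515 and 0.52 (median 2.58). Srrm4 is a splicing factor gene and Pou3f2 a transcription factor gene of neurons. Crabp1 was nearest to Fam174a, Cars2 and Ccdc50, at 0.155, 0.194 and 0.223 (median 1.88).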

How the data were processed

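Per the labels' protocols, RNA amplification and labelling used a NuGEN Ovation kit. Per the submitters' processing notes, GCRMA and limma were used, with versions and options not given in the sources used here. The authors deposited log2 expression values per probe set, normalized between arrays; their range shows the log2 scale. They were used as deposited. For arrays, their number limits the precision. GEO's platform annotation named 34945 non-control probe sets with 1 symbol, 932 with several and 9211 with none; 64 control probe sets were left out of the fit.

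In R 4.3.3, limma 3.58.1 fitted the 3 group means to the 9 arrays and moderated the variances along an intensity trend (eBayes), leaving 6 residual degrees of freedom. The fit gave standard errors (SE) and 95% intervals, and standard deviations (SD) are over a group's 3 arrays. The 3 groups shared 1 spread per probe set. Intervals and p-values between the day 5 cultures thus also carry the spread of the ES arrays. The median SD over all probe sets tested was 0.402 in ES cells, 0.156 in MN cultures and 0.121 in Cdx2/FGF cultures. The labels state no separate origin of a group's arrays, so the p-values rest on a spread among arrays that may be technical only. The fit was tested on simulated data. The members and lists were chosen with earlier results of these data known. Named list genes were up to 3 called rises and 3 called falls per comparison with groups that did not overlap, and 8 genes of the pathway in any case. Alternatives were other normalizations, filters, variance priors, probe set rules, array weights, the replicate number as a block, the 6 arrays of a comparison alone, and each array left out.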

Additional observations from a re-analysis of the deposited data

How the results depend on the processing

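Under 13 alternatives and the 9 fits that left out an array, 682 of 702 recomputed member differences kept their call, 20 calls ended, 0 were gained and 0 reversed. The calls that ended were those of Cyp26a1 and Rara between the day 5 cultures and of the second Rarg probe set between MN cultures and ES cells. The count of members lower in MN cultures than in ES cells went from 2 to 1 with quantile normalization, median centring, the filter at 6, values under 4 raised to 4, 1 probe set per gene and probe sets averaged by gene. The filter at 6 removed a Rarg probe set and Aldh1a2, and the last pair of settings leave Rarg 1 value. The count higher between the day 5 cultures went from 5 to 3 with the filter at 6. That lower in Cdx2/FGF cultures than in ES cells went from 1 to 0 with probe sets averaged by gene. With an array left out, the counts were 7 to 8 higher and 1 to 2 lower (MN cultures against ES cells), 4 to 5 higher and 1 to 3 lower (between the day 5 cultures), and 9 higher and 1 lower (Cdx2/FGF cultures against ES cells). Without any one of the 3 MN arrays, Cyp26b1 no longer passed the filter on low values, which with Rara leaves 1 member lower between the day 5 cultures. Same-numbered arrays did not deviate together in every pair (correlations of -0.0281 to 0.106), so the numbers were not taken as pairs; with the replicate block, 8 and 2, 5 and 3, and 9 and 1 members were higher and lower, and no call changed. Values under 4 lie near the floor and limit folds of Cyp26b1, Cyp26a1, Rara, Rarb, Rarg, Stra6 and Aldh1a2 to bounds.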
